A study of Mus musculus with 9 samples.

Results

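Lrat, Cygb, Ecm1, Colec11, Reln, Hgf, Dcn, Tgfb1, Col1a1 and Col3a1 form a panel of 10 genes known from hepatic stellate cells, the pericytes of the liver sinusoid, and from the extracellular matrix. They were chosen by gene symbol, and all 10 were found by their Ensembl identifiers among the 54007 genes and gene models of a liver expression table. In the livers of mice fed a high-fat diet, Cygb and Ecm1 were lower than in control livers. In the livers of mice that also received a gut bacterium, Cygb, Ecm1, Colec11 and Tgfb1 were lower than in control livers and Lrat was higher. None of the 10 genes differed past the threshold between the 2 high-fat diet groups, where only 0.628% of all tested genes did.

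Stellate cells lie between hepatocytes and the sinusoidal endothelium and, in the quiescent state, hold most of the vitamin A of the body as retinyl esters in lipid droplets. When the liver is injured they lose these droplets, become contractile and deposit fibrillar collagen, a change driven in large part by TGF-beta. Several of the genes are also transcribed in other liver cells. Tgfb1, for example, is made by macrophages too.

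RNA was sequenced from whole liver of C57BL/6 mice at postnatal day 98, with 3 libraries in each of 3 groups. Control libraries (replicates 1, 2 and 4) carry the treatment label control, with no diet or sham gavage named. HFD libraries (replicates 1, 2 and 3) came from mice on a high-fat diet, and HFD+Pc libraries (replicates 1, 3 and 4) from mice on a high-fat diet that were given Papillibacter cinnamivorans, a gut commensal bacterium, by gavage. Mice were 6 weeks old at the start, with 15 in each group. Whether 1 animal or several went into a library is not given in the labels, and p-values therefore measure spread among libraries, which may be technical in part. The HFD group was not stated to be gavaged, so an effect of the bacterium and one of the gavage itself cannot be told apart.

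Values are FPKM, fragments per kilobase of transcript, scaled for the depth of each library. Whole reads recovered from them came to 16560130 to 18927949 per library. Differences are between group means of log2(FPKM + 1), which understates the change of genes with low FPKM, and ratios are between group means of FPKM. A gene passed when its adjusted p was under 0.05 among the 10988 genes that reached 1 FPKM in 3 or more libraries. HFD replicate 3 stood apart from the other HFD libraries on the second principal component of all tested genes, at -3.94 against -17.6 and -18.9, with controls at 3.63 to 4.83 and HFD+Pc libraries at 7.003 to 10.8. The tissue label held in the data: the summed FPKM of 19 hepatocyte markers was 45561 to 67525 per library, against 93.7 to 136 for the 10 stellate cell and matrix genes. The classical stellate cell markers Des and Pdgfrb were above 0 in all 9 libraries, and none of 20 other stellate cell markers was at 0 throughout. In RNA from whole liver, fewer cells of a type and less RNA per cell cannot be told apart.

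Promoters of 7 of the 10 genes were in a RefSeq table on GRCm38.p6, and those of 4 genes that passed a test are shown, since these are the letters upstream of the transcripts whose levels differed. Each runs 5′ to 3′ on the strand of its gene and covers the 250 bases before the annotated start. Capitals mark matches, on either strand, to 7 motifs searched: the TATA box (TATAAA), the CCAAT box (CCAAT), the GC box (GGGCGG), the SMAD box (CAGAC), the AP-1 site (TGANTCA) and 2 nuclear receptor half-sites (AGGTCA and AGTTCA). The regions are chr3:82903975-82904224 (minus strand) for Lrat, chr3:95739570-95739819 (minus) for Ecm1, chr7:25686752-25687001 (plus) for Tgfb1 and chr12:28623331-28623580 (minus) for Colec11.
Lrat: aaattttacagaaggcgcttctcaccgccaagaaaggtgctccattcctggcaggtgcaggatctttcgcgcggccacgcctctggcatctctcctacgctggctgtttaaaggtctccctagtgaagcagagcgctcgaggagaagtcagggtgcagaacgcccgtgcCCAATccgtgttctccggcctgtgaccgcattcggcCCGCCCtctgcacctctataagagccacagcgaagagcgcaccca
Ecm1: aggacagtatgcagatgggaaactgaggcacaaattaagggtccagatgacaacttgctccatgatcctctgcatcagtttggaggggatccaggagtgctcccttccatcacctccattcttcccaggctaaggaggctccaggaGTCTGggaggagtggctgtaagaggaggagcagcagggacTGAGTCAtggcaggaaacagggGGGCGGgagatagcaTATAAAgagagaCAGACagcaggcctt
Tgfb1: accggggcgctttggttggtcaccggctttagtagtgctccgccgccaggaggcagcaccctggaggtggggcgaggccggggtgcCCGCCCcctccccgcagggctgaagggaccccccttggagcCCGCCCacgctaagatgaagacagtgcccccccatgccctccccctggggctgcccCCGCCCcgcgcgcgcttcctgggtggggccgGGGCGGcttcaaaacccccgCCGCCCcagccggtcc
Colec11: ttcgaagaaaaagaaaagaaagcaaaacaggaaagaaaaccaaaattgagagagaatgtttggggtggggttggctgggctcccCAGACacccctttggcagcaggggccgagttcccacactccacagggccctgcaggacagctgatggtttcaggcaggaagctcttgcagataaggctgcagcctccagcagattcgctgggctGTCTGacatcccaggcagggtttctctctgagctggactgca

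The Lrat promoter, upstream of the gene that was higher, held 1 CCAAT box beginning 81 bases before the start and 1 GC box at 45. Neither half-site sequence for retinoid and other nuclear receptors was in that window. The Ecm1 promoter held a TATA box at 27, an AP-1 site at 64, a GC box at 42 and 2 SMAD boxes at 104 and 15. The Tgfb1 promoter held 5 GC boxes and the Colec11 promoter 2 SMAD boxes, at 166 and 42. Among 32851 mouse promoters of the same length, 12.37% held the TATA box, 33.85% the CCAAT box, 32.74% the GC box, 42.19% the SMAD box, 6.749% the AP-1 site, and 14.02% and 11.84% the half-sites. These matches describe letters and not bound sites.

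In control livers the 10 genes spanned a wide range of FPKM, a scale that corrects for transcript length. Ecm1 was highest at 54.9 ± 5.69 FPKM (SD, n = 3), followed by Dcn at 34.6 ± 2.15 and Colec11 at 22.4 ± 0.406, and the library ranges of these 3 genes did not overlap. Cygb (3.76 ± 0.500 FPKM), Reln (3.60 ± 0.532), Lrat (3.58 ± 0.733) and Tgfb1 (3.07 ± 0.116) came next. The ranges of Cygb, Reln and Lrat overlapped one another, and that of Tgfb1 overlapped Reln and Lrat and lay below Cygb. Hgf (2.55 ± 0.290 FPKM) lay below Tgfb1 in each control library and overlapped Col3a1 (1.88 ± 0.439). Col1a1 was the lowest in every library of every group, and in controls it stood at 0.856 ± 0.0851 FPKM. It entered the test through HFD replicates 2 and 3 and HFD+Pc replicate 4, which were just over 1 FPKM, so 10 of 10 genes were tested.

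**Figure D1:**
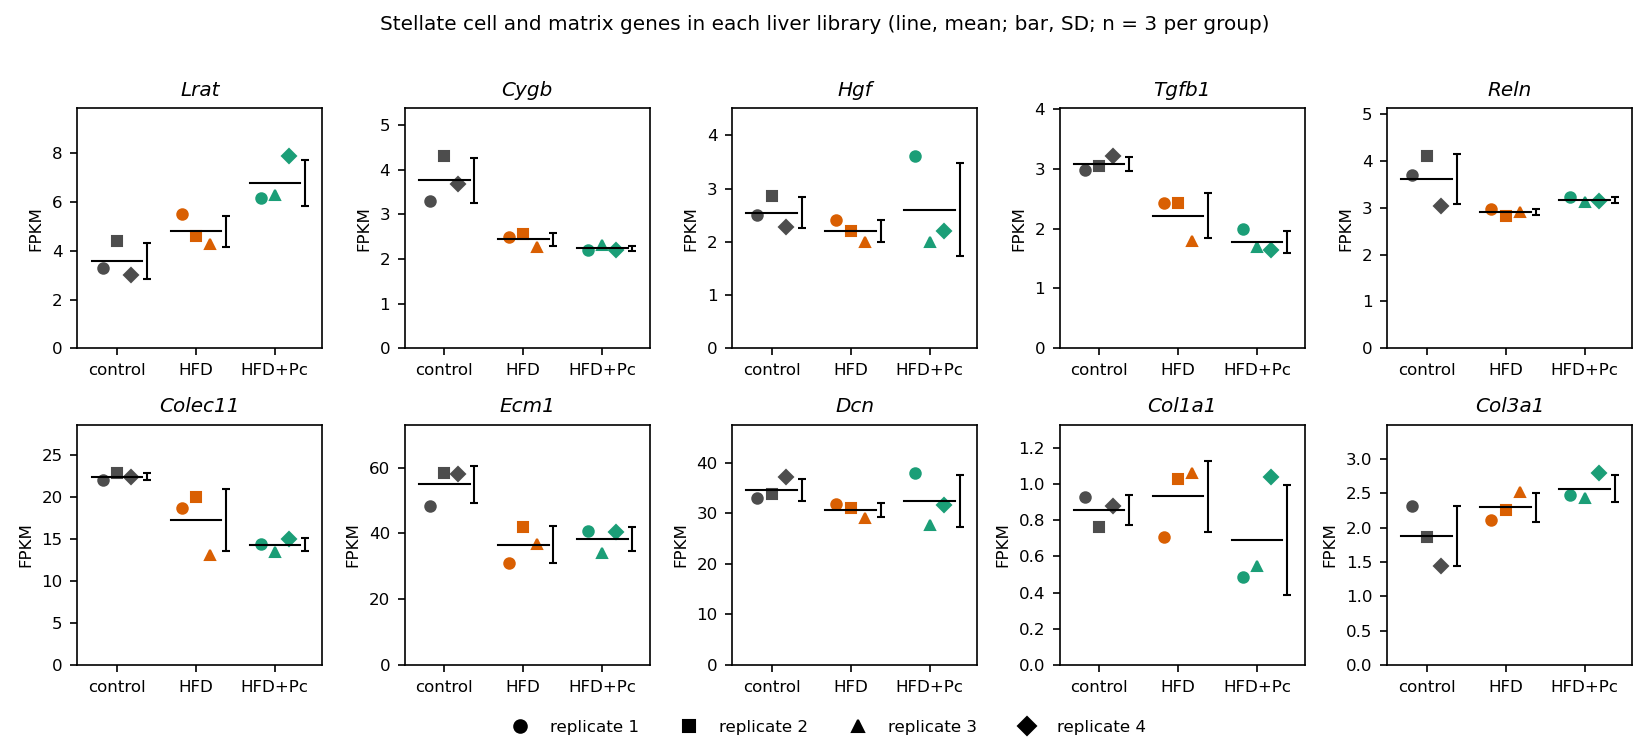
FPKM of each gene (vertical axes, linear and starting at 0) in the 9 liver libraries, by group on the horizontal axis. Points are libraries with the marker shape giving the replicate number, lines are group means and bars are SD over 3 libraries. Lrat climbs from 3.58 in controls to 6.77 in HFD+Pc, while Cygb, Colec11, Tgfb1 and Ecm1 sit lower in HFD+Pc than in any control library.

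Lrat encodes lecithin retinol acyltransferase, the enzyme that esterifies retinol for storage in stellate cell droplets. Its FPKM was 3.30, 4.41 and 3.03 in the controls, 5.51, 4.63 and 4.27 in HFD, and 6.18, 6.28 and 7.87 in HFD+Pc. Every HFD+Pc library lay above every other library, while HFD and control overlapped through control replicate 2 and HFD replicate 3. Lrat rose in HFD+Pc against control, with a ratio of 1.89 and a log2 difference of 0.77 ± 0.13 (SE; limma adjusted p = 0.00557). The HFD difference from control was 0.35 ± 0.13 (limma adjusted p = 0.131, or 0.0422 with limma-voom on recovered reads), and HFD+Pc differed from HFD by 0.42, with a 95% interval of 0.12 to 0.72 (limma adjusted p = 0.181).

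Cygb encodes cytoglobin, an oxygen-binding globin that marks stellate cells among liver cells. Its FPKM was 3.30, 4.29 and 3.68 in the controls, 2.50, 2.55 and 2.27 in HFD, and 2.21, 2.30 and 2.21 in HFD+Pc. All control libraries lay above all libraries of both high-fat diet groups, which overlapped each other. Cygb fell by 0.46 on the log2 scale in HFD (SE 0.09, ratio 0.650, limma adjusted p = 0.0168) and by 0.55 in HFD+Pc (SE 0.09, ratio 0.596, limma adjusted p = 0.00403). The HFD call did not hold when control replicate 2 was left out (limma adjusted p = 0.0539) or when no filter on low values was applied (0.0590). Recovered reads for Cygb numbered 87 to 170 per library, which limits the precision of its values.

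Since Lrat and Cygb went in opposite directions, their ratio separated the groups. The quotient of Lrat FPKM over Cygb FPKM was 0.998, 1.03 and 0.824 in the controls, 2.20, 1.82 and 1.88 in HFD, and 2.80, 2.73 and 3.56 in HFD+Pc. The 3 groups did not overlap. This quotient was formed after the values were seen and is given as a description.

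Tgfb1 encodes the cytokine TGF-beta 1, the main inducer of collagen synthesis in stellate cells. Its FPKM was 2.98, 3.03 and 3.20 in the controls, 2.43, 2.43 and 1.79 in HFD, and 1.98, 1.69 and 1.64 in HFD+Pc. Controls lay above all other libraries, and HFD replicate 3 lay within the HFD+Pc range. Tgfb1 fell by 0.56 in HFD+Pc against control (SE 0.10, ratio 0.577, limma adjusted p = 0.00579). The HFD difference was -0.35 ± 0.10, just short of the threshold (limma adjusted p = 0.0559). Between the high-fat diet groups it was -0.21 with a 95% interval of -0.43 to 0.01 (limma adjusted p = 0.345), and without HFD replicate 3 it was -0.31 (limma adjusted p = 0.132).

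Kupffer cell markers had mostly negative differences in the comparisons of HFD+Pc, 12 of 13 against control and 13 of 13 against HFD. Of these, 2 passed against control and 0 against HFD. In HFD against control, 6 of the 13 Kupffer cell markers were negative and 7 positive. There 0 passed, beside 9.97% of all tested genes. Other lists were also mostly negative in HFD+Pc against control: 15 of 19 other stellate cell markers, 18 of 20 other matrix genes and 14 of 17 sinusoidal endothelial markers. For HFD+Pc against HFD, 6, 8 and 6 of these were negative, and for HFD against control 18, 19 and 17. The summed FPKM of the 13 Kupffer cell markers was 419.9 to 564 in controls, 367 to 512 in HFD and 288 to 449 in HFD+Pc, with none at 0. C1qa and C1qc, subunits of complement C1q, were the 2 of 13 that passed and were lower in HFD+Pc against control, where 23.1% of all tested genes were called. Without HFD+Pc replicate 1 the count was 6, and it was 1 without control replicate 1, control replicate 4, HFD+Pc replicate 3 or HFD+Pc replicate 4. C1qa had the second closest profile to Tgfb1 over the 9 libraries, after H2-D1, a class I histocompatibility gene whose near-identical relatives could share its reads. Its FPKM was 69.6, 57.4 and 78.6 in controls, 53.5, 52.3 and 30.5 in HFD, and 35.5, 28.6 and 25.3 in HFD+Pc. The part of these markers in the Tgfb1 result was not tested.

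Colec11 encodes collectin-11, a secreted lectin that starts the lectin pathway of complement. Its FPKM was 22.0, 22.8 and 22.3 in the controls, 18.7, 19.98 and 13.1 in HFD, and 14.4, 13.5 and 15.0 in HFD+Pc. Controls were tightly grouped above all other libraries, and HFD replicate 3 was the lowest library of all. Colec11 fell by 0.61 in HFD+Pc against control (SE 0.13, ratio 0.638, limma adjusted p = 0.0119), and the HFD difference of -0.38 ± 0.13 did not pass (limma adjusted p = 0.102). HFD+Pc differed from HFD by -0.23 (limma adjusted p = 0.431). Without HFD replicate 3 that difference was -0.41 (limma adjusted p = 0.0509), and the HFD difference from control became -0.20 (limma adjusted p = 0.170).

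Ecm1 encodes extracellular matrix protein 1, which in mouse liver holds latent TGF-beta inactive. Its FPKM was 48.4, 58.4 and 58.0 in the controls, 30.9, 42.1 and 36.7 in HFD, and 40.6, 34.1 and 40.4 in HFD+Pc. The control libraries were above all others, and the high-fat diet groups overlapped. Ecm1 fell by 0.58 in HFD (SE 0.13, ratio 0.666, limma adjusted p = 0.0264) and by 0.50 in HFD+Pc (SE 0.13, ratio 0.699, limma adjusted p = 0.0218). Of the 7 calls in the panel, these were the ones lost in the most fits with a library left out. The HFD call was lost without control replicate 2, control replicate 4, HFD replicate 1 or HFD replicate 3 (highest limma adjusted p = 0.0857), and the HFD+Pc call without control replicate 2, control replicate 4 or HFD+Pc replicate 3 (highest 0.0828). Both calls were also lost with no filter on low values (limma adjusted p = 0.0899 and 0.0699).

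Hgf encodes hepatocyte growth factor, the stellate-cell-derived mitogen of hepatocytes. Its FPKM was 2.50, 2.86 and 2.29 in the controls, 2.41, 2.20 and 2.003 in HFD, and 3.61, 1.99 and 2.21 in HFD+Pc. HFD+Pc replicate 1 was the highest library and replicate 3 of the same group the lowest, and all groups overlapped. No comparison passed, and the difference between HFD+Pc and HFD was 0.14 with a 95% interval of -0.20 to 0.48 (limma adjusted p = 0.702). Without HFD+Pc replicate 1 it was -0.05 (limma adjusted p = 0.865). Met, the Hgf receptor, was at 17.6 ± 1.87 FPKM in controls, 17.0 ± 1.10 in HFD and 19.7 ± 2.16 in HFD+Pc (SD, n = 3) and passed in no comparison.

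Reln encodes reelin, a large secreted glycoprotein that binds lipoprotein receptors. Its FPKM was 3.69, 4.09 and 3.03 in the controls, 2.97, 2.83 and 2.91 in HFD, and 3.24, 3.13 and 3.14 in HFD+Pc. HFD libraries were the lowest, below every control and every HFD+Pc library. The differences were small, at -0.23 ± 0.09 for HFD against control (limma adjusted p = 0.131) and 0.09 ± 0.09 for HFD+Pc against HFD (limma adjusted p = 0.665). Vldlr, a reelin receptor, was below the expression filter, at 0.105 to 0.247 FPKM in controls, 0.191 to 0.774 in HFD and 0.426 to 0.559 in HFD+Pc, and was not tested.

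Dcn encodes decorin, a small proteoglycan that binds collagen fibrils and TGF-beta. Its FPKM was 33.0, 33.8 and 37.1 in the controls, 31.8, 31.1 and 29.1 in HFD, and 37.9, 27.7 and 31.7 in HFD+Pc. HFD libraries lay below all controls, while HFD+Pc spanned the whole range. No comparison passed, and the HFD difference from control was -0.17 with a 95% interval of -0.42 to 0.08 (limma adjusted p = 0.347).

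Col1a1 and Col3a1 encode the chains of the fibrillar collagens I and III that build scar tissue. Col1a1 FPKM was 0.929, 0.762 and 0.876 in the controls, 0.706, 1.03 and 1.06 in HFD, and 0.488, 0.545 and 1.04 in HFD+Pc. The groups overlapped in every comparison, with HFD+Pc replicate 4 well above the other HFD+Pc libraries, and only 56 to 117 reads were recovered per library. Against control, Col1a1 differed by 0.05 in HFD (95% interval -0.27 to 0.38) and by -0.15 in HFD+Pc (-0.47 to 0.18), with limma adjusted p of 0.844 and 0.486. Col1a2, the partner chain of collagen I, was at 1.19 ± 0.198 FPKM in controls, 0.869 ± 0.165 in HFD and 0.988 ± 0.120 in HFD+Pc (SD, n = 3) and did not pass either.

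Col3a1 FPKM was 2.32, 1.86 and 1.44 in the controls, 2.12, 2.26 and 2.52 in HFD, and 2.48, 2.44 and 2.80 in HFD+Pc. All HFD+Pc libraries lay above all controls, among which replicate 1 was the highest. The difference of HFD+Pc from control was 0.32 ± 0.11, a ratio of 1.37, and did not pass (limma adjusted p = 0.0696). It passed without control replicate 1 (0.43, limma adjusted p = 0.0330) and with limma-voom on recovered reads (0.48, limma adjusted p = 0.0257).

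Across the panel, 2 of 10 genes passed in HFD against control, both lower, where 9.97% of all tested genes passed in either direction 4.61% as higher and 5.35% as lower. In HFD+Pc against control, 5 of 10 passed, 1 higher and 4 lower, where 23.1% of all tested genes passed, 11.1% as higher and 11.9% as lower. These comparisons share the control libraries. Limma called 0 of 10 in HFD+Pc against HFD, where 0.628% of all tested genes passed; 1 gene, Lrat, had an unadjusted p under 0.05 (15.6% of all tested genes did), and limma-voom also called 0. The median difference of the 10 genes was -0.20, 0.07 and -0.14 in these 3 comparisons, taken with HFD against control first, then HFD+Pc against HFD, and last HFD+Pc against control, against medians of all tested genes within 0.01 of 0. By library values alone, the groups did not overlap for 6 of 10 genes in HFD against control (32.9% of all tested genes), 2 of 10 in HFD+Pc against HFD (19.8%) and 6 of 10 in HFD+Pc against control (42.8%).

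**Figure D2:**
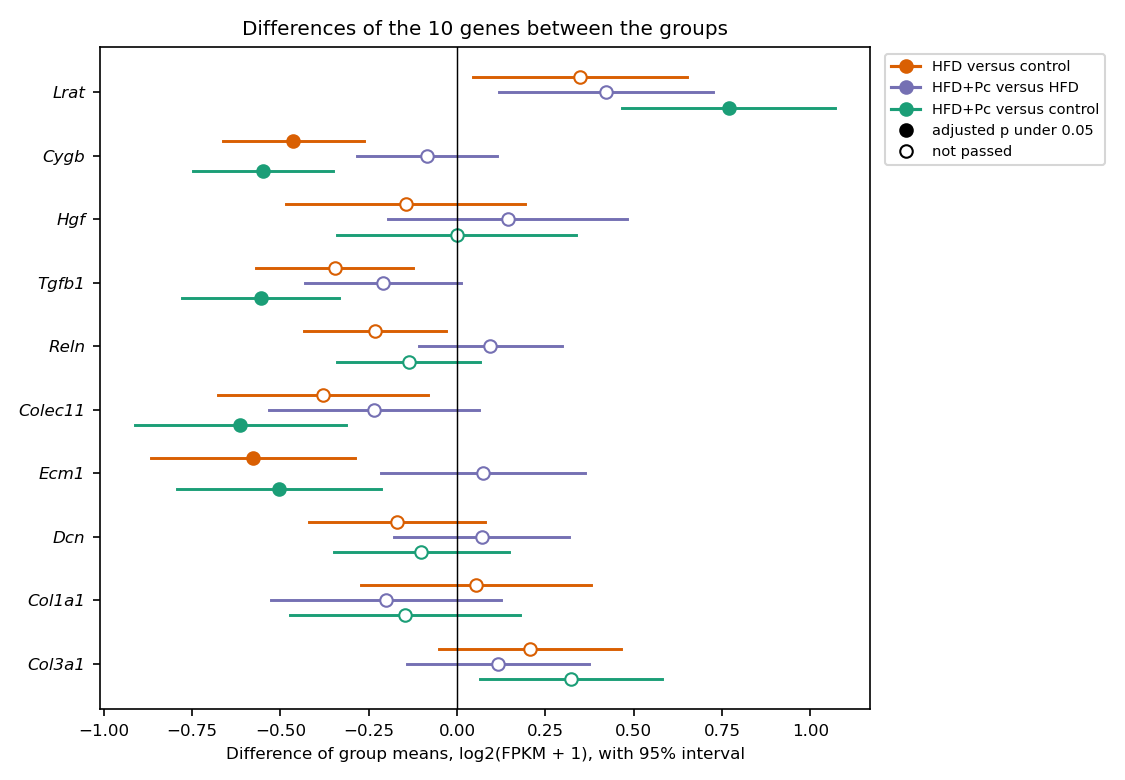
Difference between group means of log2(FPKM + 1) for each gene (horizontal axis) with its 95% interval, in the 3 comparisons, which are coloured. Filled points passed at an adjusted p under 0.05. Lrat lies to the right of 0 in each comparison and reaches 0.77 in HFD+Pc against control, while the filled points of Cygb, Ecm1, Colec11 and Tgfb1 lie between -0.61 and -0.46.

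**Figure D3:**
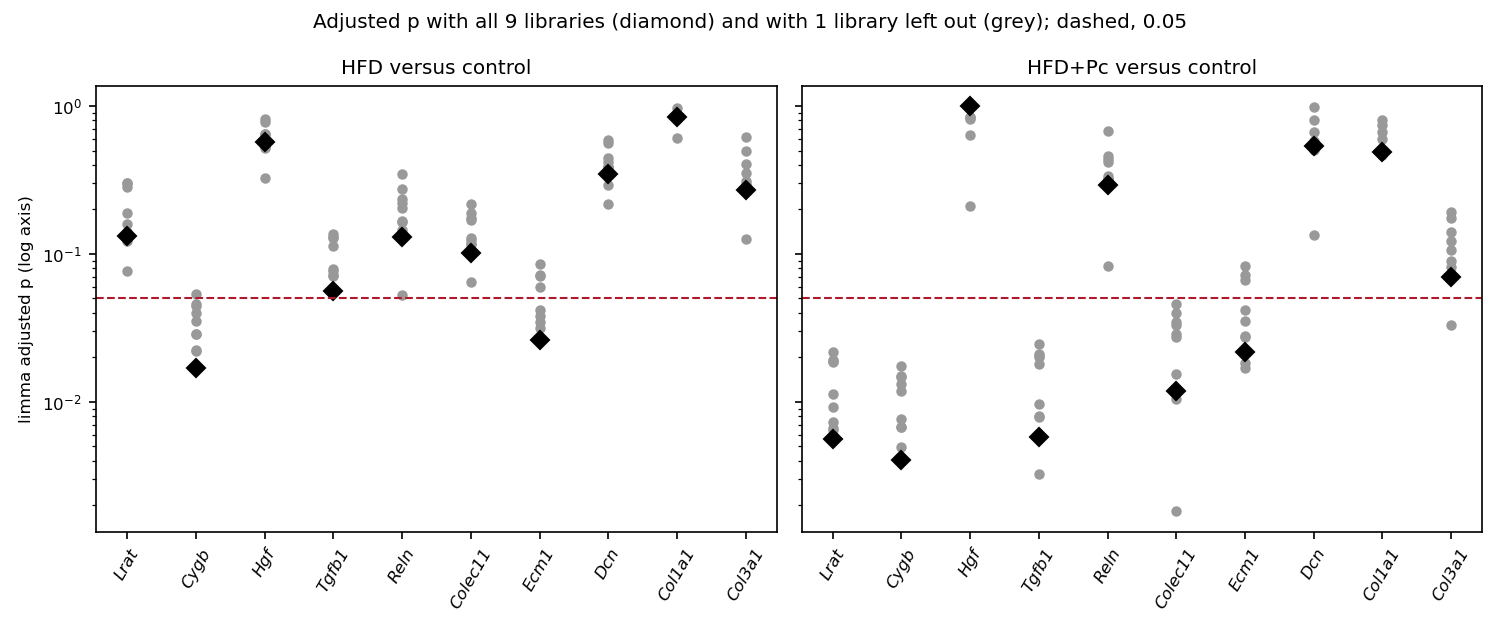
Adjusted p (log axis) of each gene with all 9 libraries (diamonds) and with 1 library left out in turn (grey points), for HFD against control and HFD+Pc against control. The dashed line is at 0.05. Lrat, Cygb, Colec11 and Tgfb1 stay under the line in all 9 fits of HFD+Pc against control, and Ecm1 does so in 6 of 9.

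Genes listed for retinoids, the store that Lrat fills, were examined in all groups. Of 20 tested, 2 were higher and 1 lower in HFD against control. Raet1d, 1 of the 2 higher, does not itself handle retinoids. In HFD+Pc against control 5 were higher and 2 lower, and none passed between HFD+Pc and HFD. Of all tested genes, 4.61% were called higher and 5.35% lower in the first comparison, and 11.1% and 11.9% in the second. With a library left out the counts of 3 and 7 ranged over 0 to 2 and 5 to 7. Cyp26b1, which breaks down retinoic acid, had 1.65, 3.79 and 1.17 FPKM in controls, 4.53, 3.05 and 2.67 in HFD, and 5.55, 9.75 and 11.9 in HFD+Pc. It rose by 1.68 ± 0.33 on the log2 scale in HFD+Pc against control (limma adjusted p = 0.00890), and all HFD+Pc libraries were above all others. Rdh10, which oxidises retinol to retinal, rose from 6.78 to 9.37 FPKM (0.41 ± 0.09, limma adjusted p = 0.0106).

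Aldh1a1, which makes retinoic acid from retinal, rose in both diet groups, from 269 FPKM in controls to 448 in HFD (limma adjusted p = 0.0450) and 508 in HFD+Pc (0.0115). The HFD call held in 1 of the 9 fits with a library left out. Ces1g, a carboxylesterase, and Stra6l, a receptor for retinol-binding protein, also rose in HFD+Pc against control, and the Stra6l call held in none of those 9 fits. The retinoid receptors Rxra and Rara fell in that comparison, by 0.47 each (limma adjusted p = 0.00620 and 0.00873). In HFD against control, Rbp4, the blood carrier of retinol, fell by 0.42 (limma adjusted p = 0.0357), and Raet1d, which is named for its induction by retinoic acid and encodes a ligand of the NKG2D receptor of killer cells, rose by 1.14 (limma adjusted p = 0.0438). The Rbp4 and Raet1d calls held in 1 and 2 of 9 such fits.

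The genes closest to the panel in profile were found by the root mean square distance between z-scored log2(FPKM + 1) values over the 9 libraries. Over all tested genes the median distance to a panel gene was 1.32 to 1.36. Cyp26b1 was the closest gene to Lrat, at 0.236, followed by Gm49012 and Rab24. Pdgfrb, the PDGF receptor of stellate cells, was the closest to Colec11, at 0.141, followed by Itm2c and Ppp1r9b. Within the panel, Colec11 and Tgfb1 were the closest of 45 pairs, at 0.282.

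For Cygb the closest genes were Grina, Eif1ad and Nectin2, and Scd2 and Cdk4 were among the 3 closest to Ecm1. For Tgfb1 the third was Gm17828. The closest to Reln were Btg1, Zdhhc20 and Tmc6, and to Hgf they were Slc25a42, Zfp715 and Prcp. Dcn was nearest to F3, Prcp and Gtf3c4, Col1a1 to Ube2o, Haghl and Gm10175, and Col3a1 to Smc3, Nr3c1 and D930016D06Rik. For Cygb, Reln, Hgf, Dcn, Col1a1 and Col3a1, the distance to the closest gene ranged from 0.196 for Cygb to 0.377 for Hgf.

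**Figure D4:**
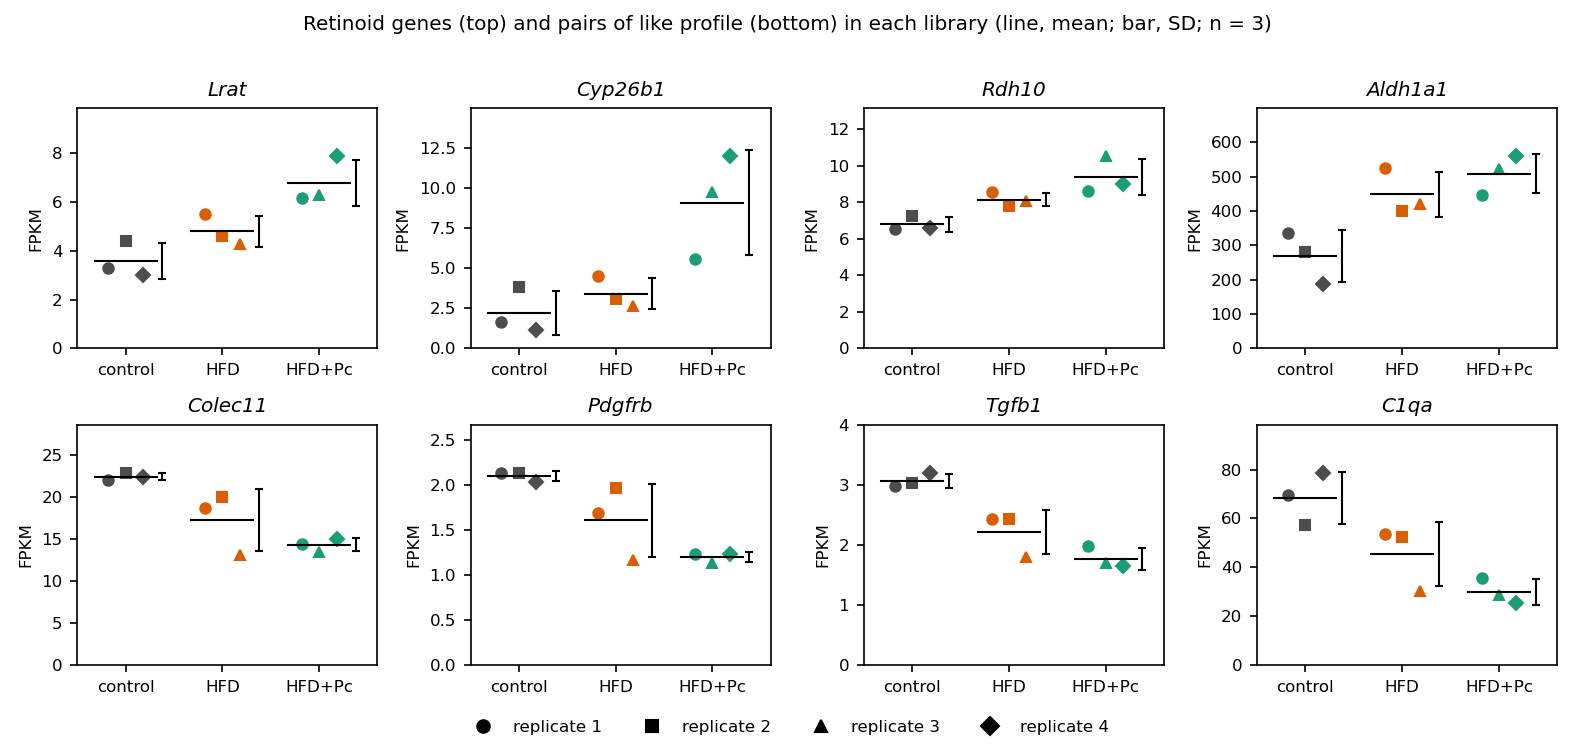
FPKM (vertical axes from 0) in each library by group for the retinoid genes Lrat, Cyp26b1, Rdh10 and Aldh1a1 (top) and for Colec11 beside Pdgfrb and Tgfb1 beside C1qa (bottom). Points are libraries, lines are means and bars are SD over 3 libraries. In the lower panels HFD replicate 3 sits below the other HFD libraries, at 13.1 for Colec11, under every HFD+Pc library, and at 1.79 for Tgfb1, within the HFD+Pc range.

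Of 19 other stellate cell markers tested, 2, Vipr1 and Abcc9, were lower in HFD against control, near the share of all tested genes called (9.97%). In HFD+Pc against control 3 were lower, Vipr1, Pdgfrb and Hand2, where 23.1% of all tested genes were called. With a library left out the counts ranged over 0 to 3 and 2 to 3. The Abcc9 call in HFD (limma adjusted p = 0.0434) held in 2 of 9 such fits. It was also lost under other settings, among them 2-group fits, limma-voom and plain read totals. Vipr1, a receptor for vasoactive intestinal peptide, fell from 9.28 FPKM in controls to 5.75 in HFD (limma adjusted p = 0.0168) and 5.14 in HFD+Pc (0.00378). Pdgfrb had 2.14, 2.14 and 2.04 FPKM in controls, 1.69, 1.97 and 1.17 in HFD, and 1.23, 1.13 and 1.23 in HFD+Pc, a fall of 0.50 against control (limma adjusted p = 0.0134). The summed FPKM of the 20 listed markers was 72.8 to 81.9 in controls, 58.1 to 66.1 in HFD and 63.4 to 69.1 in HFD+Pc.

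Among activation and contractile genes, 8 of 18 listed were expressed enough to be tested, and 2 rose in both diet groups against control. In these comparisons 9.97% and 23.1% of all tested genes were called. Of the 8 differences, 4 were positive and 4 negative in each, with medians of 0.08 in HFD and -0.04 in HFD+Pc. The negative ones were those of Ccn2, Myl9, Postn and Vim, which did not pass. Tpm2, a tropomyosin, rose from 0.812 FPKM in controls to 3.71 in HFD (limma adjusted p = 0.00757) and 2.43 in HFD+Pc (0.0117). Its control libraries, at 0.992, 0.910 and 0.532 FPKM, were all under 1. Tpm2 therefore entered the test only through the diet groups, where it was high. Cald1, the actin-binding protein caldesmon, rose from 16.3 FPKM to 20.2 in each (limma adjusted p = 0.0316 and 0.0153), calls that held in 3 and 7 of 9 fits with a library left out. Acta2, the classical marker of activated stellate cells, named here after its values were seen, was not tested: it was at 0.124 to 1.02 FPKM in all libraries, with HFD replicates 1 and 2 the lowest.

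Of 20 tested genes for other collagens and matrix proteins, 5 were lower in HFD against control (Hspg2, Lamc1, Col18a1, Col4a1 and Lamb1) and 8 in HFD+Pc against control, and none was higher in either. Hspg2, the basement membrane proteoglycan perlecan, fell from 3.50 FPKM to 2.01 in HFD (limma adjusted p = 0.0101). Col18a1, the basement membrane collagen that yields endostatin, fell from 156 FPKM to 112 (limma adjusted p = 0.0399), a call that held in 2 of 9 fits with a library left out. In HFD+Pc the lowest adjusted p belonged to Mgp, matrix Gla protein, which fell from 1.20 FPKM to 0.528 (limma adjusted p = 0.0137), and to Bgn, biglycan, which fell from 22.5 to 16.4 (0.0171). For Mgp, the control mean was over the filter of 1 FPKM and the HFD+Pc mean under it. The counts of 5 and 8 stand beside 9.97% and 23.1% of all tested genes called. With single libraries left out, the count of 8 ranged from 1, without control replicate 1, to 8, and the count of 5 from 1 to 4.

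Genes that process or degrade matrix were called in small numbers, 3 of 12 and 2 of 9 in HFD against control (9.97% of all tested genes) and 2 of 12 and 1 of 9 in HFD+Pc against control (23.1%). With a library left out these counts ranged over 0 to 3 and 1 to 2, and over 1 to 3 and 1 to 3. Of 12 tested collagen-processing genes, Bmp1, which cleaves procollagen, and Plod1, a lysyl hydroxylase, were lower in both diet groups against control, and P4ha1, a prolyl hydroxylase subunit, was higher in HFD. Bmp1 fell from 18.2 FPKM to 13.4 in HFD and 12.8 in HFD+Pc (limma adjusted p = 0.0257 and 0.00722), held in 5 and 9 of 9 such fits. Of 9 tested genes of matrix turnover, Mmp14, a membrane-bound collagenase, fell from 8.43 FPKM to 4.76 and 4.64 (limma adjusted p = 0.00644 and 0.00206), and Reck, an inhibitor of such proteases, fell in HFD (0.0494), a call that held in 1 of 9 fits with a library left out.

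Of 18 tested TGF-beta pathway genes other than Tgfb1, 3 were lower in HFD against control (Ltbp4, Furin and Tgfbr3) and 4 in HFD+Pc against control (Furin, Ltbp4, Tgfbi and Smad7), with none higher. All tested genes were called at 9.97% and 23.1% in these comparisons, and the counts ranged over 1 to 4 and 2 to 7 with a library left out, the 7 without HFD+Pc replicate 1 and the 2 without HFD+Pc replicate 3. Ltbp4, which tethers latent TGF-beta to the matrix, fell from 14.5 FPKM to 9.10 in HFD and 10.3 in HFD+Pc (limma adjusted p = 0.00532 and 0.00543). Furin, a protease that processes the TGF-beta precursor among many others, fell from 32.6 FPKM to 23.0 and 20.1 (0.0264 and 0.00415), calls that held in 5 and 9 of 9 fits with a library left out. Smad7, the inhibitory SMAD, was at 4.82, 4.26 and 4.93 FPKM in controls and 2.74, 1.56 and 1.18 in HFD+Pc (limma adjusted p = 0.0201, held in 4 of 9 such fits), with HFD replicate 3 at 5.47 against 2.62 and 2.51 in the other HFD libraries. The receptors Tgfbr1 and Tgfbr2 passed in no comparison. Tgfbr1 was at 5.52 ± 0.903 FPKM in controls, 5.10 ± 0.366 in HFD and 5.15 ± 0.564 in HFD+Pc (SD, n = 3). Tgfbr2 was at 6.44 ± 0.715, 4.79 ± 0.291 and 5.10 ± 0.849 in the same order. Its HFD libraries (4.47 to 5.03) lay below all controls (5.65 to 7.04), where 32.9% of all tested genes did not overlap in either direction. Of 6 tested partners of HGF and reelin, Hpn, a protease that activates HGF, was lower in HFD, and Grb2, an adaptor that binds Met, was lower in HFD+Pc, both against control. That is 1 of 6 in each comparison, beside 9.97% and 23.1% of all tested genes called.

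**Figure D5:**
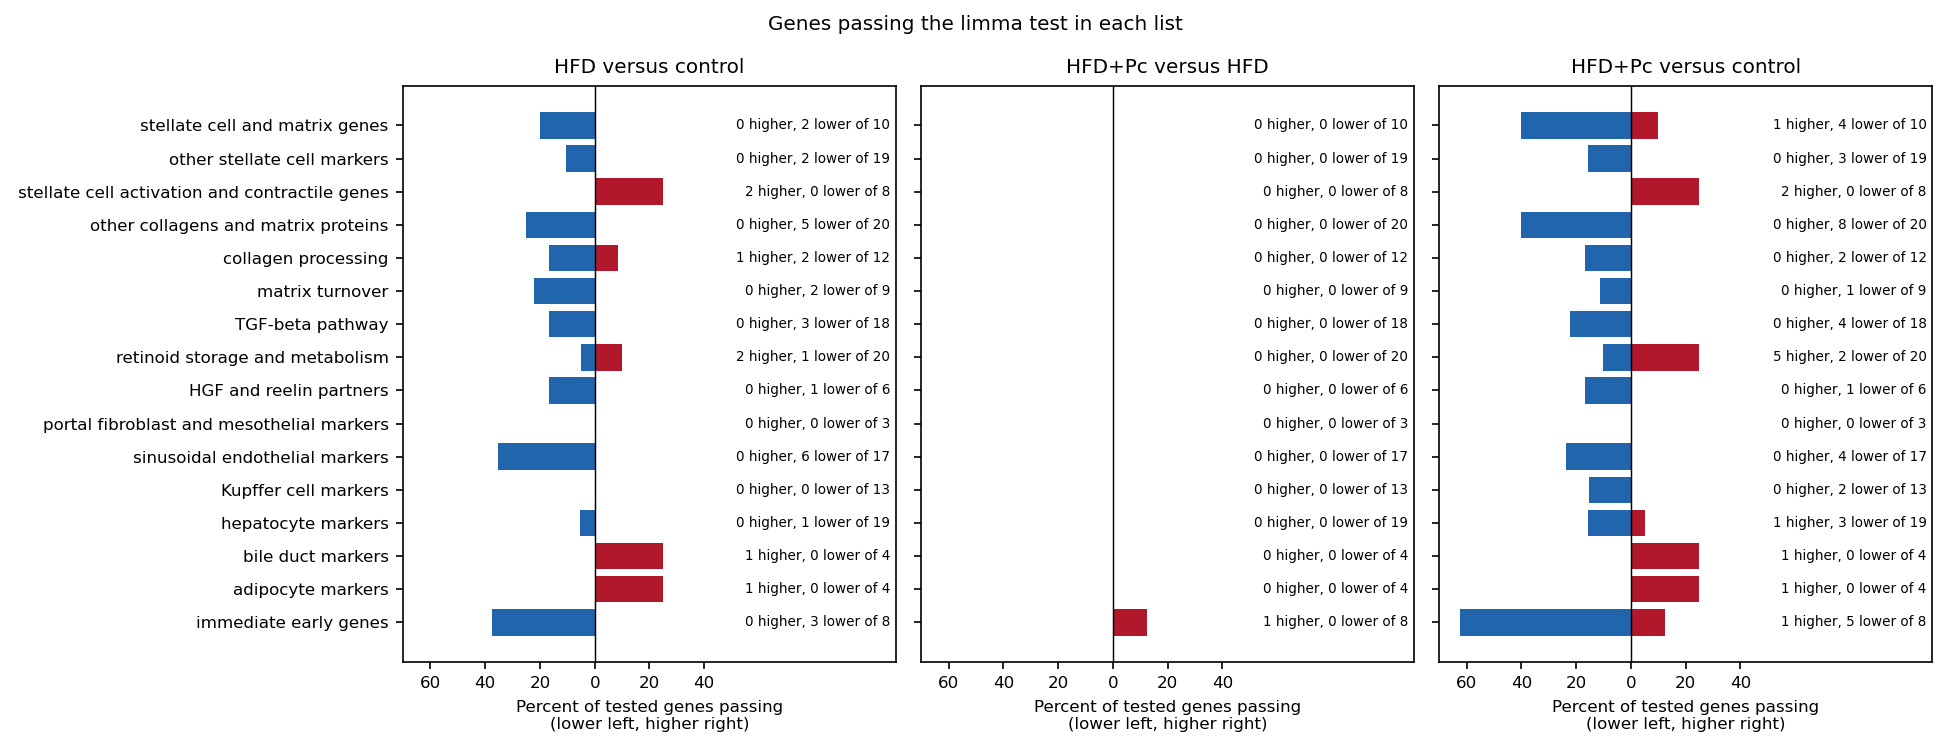
Percent of the tested genes of each list that passed, lower to the left and higher to the right, in the 3 comparisons, with the counts printed at the right. In HFD+Pc against control 4 of the 10 stellate cell and matrix genes were lower and 1 higher, beside 8 lower of 20 other matrix genes and 5 higher of 20 retinoid genes. Of all tested genes, 11.9% were called lower and 11.1% higher there. With a library left out, the count of 8 ranged from 1 to 8.

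Markers of other liver cells also differed between the groups, and their part in the results was not tested. Of 17 sinusoidal endothelial markers, 6 were lower in HFD against control, Kdr and Stab2 with the lowest adjusted p, and 4 in HFD+Pc against control (Cdh5, Egfl7, Flt4 and Oit3), where 9.97% and 23.1% of all tested genes were called. The count of 6 ranged from 0, without control replicate 2, to 6, with 2 called without HFD replicate 3. The count of 4 ranged from 1, without control replicate 4 or HFD+Pc replicate 3, to 6, without HFD replicate 2. Their summed FPKM was 172 to 189 in controls, 123 to 155 in HFD and 143 to 149 in HFD+Pc, and none was at 0. Hepatocyte markers had a summed FPKM of 65830 to 67525 in controls, 45561 to 52011 in HFD and 53316 to 67363 in HFD+Pc. Of 19 tested, Apoa1 was lower in HFD, and in HFD+Pc Hnf4a, Ass1 and Apoa1 were lower and Serpina1a higher, all against control. These counts stand beside the same shares of all tested genes called, 9.97% and 23.1%. No portal fibroblast or mesothelial marker (3 tested) and no smooth muscle marker (1 tested; Myocd was at 0 in all libraries) passed.

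The bile duct marker Krt23 and the adipocyte marker Cfd were each the only one of 4 tested on their lists to pass, and both were higher in both diet groups against control. In these comparisons, 9.97% of all tested genes were called for HFD and 23.1% for HFD+Pc. Cfd, which encodes the complement protease adipsin, was at 0.0812 FPKM in controls, 12.3 in HFD and 4.50 in HFD+Pc. With so low a control mean, Cfd entered the test only through the diet groups, where it was high. Summed adipocyte markers were at 223 to 851 FPKM in controls, 787 to 1023 in HFD and 666 to 1076 in HFD+Pc. Of the 8 listed, 4 had a mean under 1 FPKM, so these sums rest on few genes. Whether adipocytes gave them was not tested. Summed bile duct markers were at 25.6 to 33.6 FPKM in controls, 35.1 to 53.7 in HFD and 31.2 to 42.8 in HFD+Pc. Immediate early genes, which respond within minutes to handling of tissue, were summed at 69.8 to 155 FPKM in controls, 53.9 to 59.3 in HFD and 58.2 to 66.1 in HFD+Pc. Of 8 tested, Dusp1, Jund and Btg2 were lower in HFD against control, and 5 including Jund and Junb were lower in HFD+Pc against control. Egr1 was higher in HFD+Pc against each of the other groups. The counts of 3 and 6 against control ranged over 0 to 5 and 4 to 7 with a library left out. All tested genes were called at 9.97% and 23.1% there, and at 0.628% between the diet groups. The Egr1 call against HFD (limma adjusted p = 0.0446) held in 3 of 9 fits with a library left out. It was also lost under 4 other settings, among them a pseudocount of 0.1 and no filter (highest limma adjusted p = 0.158).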

How the data were processed

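Liver RNA of 9 libraries was measured by RNA sequencing. The authors deposited FPKM values for 54007 genes and gene models, per the file headers. Per the submitters' processing notes, HISAT2 2.0.5 was used for alignment and GRCm39 was the genome build. The counting tool, annotation and strand setting are not given in the sources used here. A gene name table gave symbols for 52093 of the 53700 Ensembl identifiers.

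The 10988 genes that reached 1 FPKM in 3 or more libraries were tested with limma 3.58.1 in R 4.3.3 on log2(FPKM + 1). A single model held the means of the 3 groups, variances were moderated robustly with a trend, and p-values were adjusted by Benjamini-Hochberg over all tested genes. The test was also run on simulated counts, drawn with a common setting of spread for all genes. That run cannot show how the test performs where spread differs between genes, and its outcome is not reported here. Tables were made with Python 3.11.15 and pandas 2.3.3. Within a gene, FPKM were whole multiples of 1 read's value, so reads were recovered for 26127 of 26278 genes above 0, within 0.02 of a whole number. The FPKM divisors were 97.4% to 108% of the recovered totals, so the deposited values appear to rest on rescaled library sizes, which no source states. They were 108%, 103% and 102% in HFD, 98.8%, 97.4% and 100% in controls, and 101%, 98.3% and 97.8% in HFD+Pc. A larger divisor lowers all FPKM of a library.

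The members and the 16 other gene lists (256 genes, 176 tested) were chosen with earlier results of these data known. The rule for named genes took all 10 members, from each other list the passing genes (up to 2 per direction with the lowest adjusted p, and all of a count of 5 or fewer), the 3 nearest profiles of each member, and 5 receptors and partners. Some genes that the rule names are not reported here. Alternatives were other pseudocounts, filters and scalings, 2-group fits, a replicate block, limma-voom on recovered reads, no trend, and each library left out. FPKM from plain read totals were added after seeing the data. RefSeq promoters are on GRCm38.p6, an earlier build than GRCm39. Exons of Cygb, Ecm1, Reln, Hgf and Col3a1 overlap small annotated genes, and those that were in the table were at or under 0.07 FPKM.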

Additional observations from a re-analysis of the deposited data

How the results depend on the processing

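The 10 genes' differences kept their direction and call in 286 of 300 combinations with settings other than leaving out a library and in 245 of 261 with a library left out. Most of the 30 differences had not passed, so a kept call mostly meant staying uncalled. Leaving out a library of the group not compared cannot change a difference. Calls were lost in 6 combinations of the first kind and 8 of the second. Counts are given for HFD against control first, then HFD+Pc against HFD, then HFD+Pc against control. The panel counts of 2, 0 and 5 ranged over 0 to 2, 0 to 0 and 4 to 6 with a library left out, and the first was 0 with no filter. All genes called ranged over 332 to 1126, 5 to 123 and 1396 to 2644 with a library left out, from 1095, 69 and 2538. Genes of the other lists called, 33, 1 and 46 in all, ranged over 8 to 33, 0 to 1 and 26 to 49.

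With a filter of 0.1 FPKM, all genes called were 725 in HFD against control and 27 in HFD+Pc against HFD, and list genes 17 and 0. With no filter, all genes called were 209, 3 and 1383, and list genes 6, 0 and 25. Fits of 2 groups called 659 and 22 genes in the first 2 comparisons, and 17 list genes in the first. Values rescaled to 1 common sum called 19 list genes in the first and 0 in the second, as did a pseudocount of 0.1 in the second (0). In HFD+Pc against HFD, limma-voom called 185 genes, no trend 30 and plain read totals, chosen after seeing the data, 115. The cause was not tested, other than that fewer samples or more genes enter some of these fits.

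Higher genes made up 46.3% of calls in HFD against control, but 60.23% with values rescaled to 1 common sum, 70.11% with limma-voom and 69.23% with plain read totals. In HFD+Pc against HFD they were 28.99%, but 18.92% with limma-voom and 14.78% with plain totals. These scalings moved the median of all genes by at most 0.08. List genes called lower in HFD against control numbered 26. They were 12 with values rescaled to 1 common sum, 14 with plain read totals and 28 with limma-voom. Many of the lower list calls in HFD thus depend on the scaling. The 2 lower calls of the panel in HFD remained under all of these.

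Samples that share a replicate number did not deviate together: the 6 correlations of their deviations ran from -0.119 to 0.0533. With the number as a replicate block, all genes called were 232, 3 and 1058, list genes 6, 1 and 28, and panel genes 0, 0 and 4; Cygb and Ecm1 in HFD (adjusted p = 0.0701 and 0.0854) and Ecm1 in HFD+Pc against control (0.0854) lost their call. These numbers come with no stated pairing.

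Signs turned only for differences that passed under no setting. Between the diet groups these were Ecm1 with limma-voom (-0.0011), plain totals (-0.0012) and without HFD replicate 1 (-0.0375; range with a library left out up to 0.1786), Dcn with limma-voom (-0.0063), plain totals (-0.0057) and without HFD+Pc replicate 1 (-0.0461; up to 0.1733), and Hgf without HFD+Pc replicate 1 (-0.0475; up to 0.2634). In HFD+Pc against control, Hgf turned with the block (0.0902), plain totals (0.0007) and without control replicate 2 (0.0605), HFD+Pc replicate 3 (0.1188) or HFD+Pc replicate 4 (0.0686; down to -0.1922), and Dcn without HFD+Pc replicate 3 (0.0031; down to -0.2163). Col1a1 and Cygb had the fewest reads, and 3 libraries per group limit every comparison.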
